A study of Mus musculus with 4 samples.

Results

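Circulating natural killer (NK) cells with no UMI (unique molecular identifier, 1 captured RNA molecule) of the cytotoxic protease Gzmb and none of the inhibitory receptor Klrg1 numbered 312 among 1970 NK cells, in a data set of 48032 kept blood cells, labelled as mouse, out of 53380 deposited. They were chosen by raw UMI counts. A cell had to hold at least 5 UMIs of Nkg7, Gzmm and Ncr1 together, no UMI of the T cell receptor partners Cd3d and Cd3g, at most 1 of the B cell gene Cd79b, under 5000 CPM (counts per 1000000 UMIs) of the myeloid gene Lyz2, at most 1 of the dividing-cell genes Mki67, Top2a, Birc5 and Cdk1 together, and 0 of Gzmb and Klrg1. Mitochondrial genes could hold at most 10% of its UMIs. The 1658 cells that met every criterion except the last, and so held at least 1 UMI of Gzmb or Klrg1, are called mature NK cells below and serve as the comparison.

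NK cells are innate lymphocytes that kill infected or stressed cells through perforin and granzymes and that secrete cytokines and chemokines. In mice, they mature from cells that carry the costimulatory receptor CD27 and the chemokine receptor CXCR3 towards cells that gain Klrg1, Gzmb, the transcription factor Zeb2 and the exit receptor S1pr5. Their killing is set by the balance of activating and inhibiting lectin-like receptors of the Klr and Ly49 families, which sit on different subsets of cells.

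The 4 libraries came from C57BL/6J wild type mice aged 6 to 8 weeks, as blood mononuclear cells separated on a Ficoll-Hypaque density gradient and captured with the 10x Genomics 5′ kit. Acute pancreatitis was induced by 7 injections of cerulein, a peptide that overstimulates the exocrine pancreas, into the abdominal cavity. The libraries are labelled 12 h and 24 h for the initial phase, 96 h for recovery and 0 h for the control, and the study's design text gives 168 h for the last of these times. The labels name no other agent or allele, and neither the number of animals behind a library nor an injection given to the control animals is stated in them. Rows of 4 values below run from the control library over 12 h and 24 h to 96 h. With 1 library per group there was no replicate check on any difference and no test was possible, so all 95% intervals cover counting error within these libraries and not the spread between animals. The comparison with mature NK cells is the rule's own contrast, and its values are a description.

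The libraries held 60515205 to 79516878 UMIs. The 312 cells held 190342 (control), 586281 (12 h), 240672 (24 h) and 561407 UMIs (96 h), with medians of 5006.5, 4221.5, 6314 and 5290 UMIs per cell against 4630, 4137.5, 5494 and 5313.5 in mature NK cells. The listed cell barcodes of the 12 h and 24 h libraries were the same 11663, although the 24 h matrix has 12588 columns, and the control list holds 4340 barcodes for 14569 columns. Other pairs of libraries shared 10 to 51 listed barcodes, and 0 cells had identical counts in any pair of libraries. Scrublet, a doublet caller, marked 3 (control), 2 (12 h), 0 (24 h) and 1 (96 h) of the selected cells. The 3 marked control cells held 22695 of the 190342 UMIs but 18 of 20 UMIs of Csf1r and 67 of 126 of Lyz2, both monocyte genes, so the values that these cells move most are also given without them. The labels name mouse and the mm10 build, but the gene names follow rat naming, with 28 beginning with RT1- and 0 with H2-. This conflict was not settled from the files, so a Klr, Ly49 or Cd8a value is that of the name printed in them, and its mouse counterpart is uncertain. Many Klra, Klri, Klrb and Ly49 genes are near-identical copies of one another that can share reads, so values of single members are uncertain.

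The selection separated NK cells from other cells clearly at its lower limit. Of the cells with 0 UMIs of Gzmb and Klrg1 that met the other criteria, 1 cell (12 h) lay just under the limit with 3 UMIs of Nkg7, Gzmm and Ncr1, 0 had 4, and 1 (96 h) lay on it with 5. The median member held 37 (control), 36 (12 h), 41 (24 h) and 42 (96 h) of these UMIs. The upper side had no such gap. Cells with exactly 1 UMI of Gzmb or Klrg1, which lay just outside, numbered 29, 91, 27 and 67.

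The selected cells held markers of NK cells at levels near those of mature NK cells. Klrb1a, a receptor of the NKR-P1 family that defines NK cells in the rat, stood at 2028 (control), 2018 (12 h), 1600 (24 h) and 2130 CPM (96 h), against 1606, 1814, 1770 and 1841 in mature NK cells. Gzmm, a granzyme used in the rule, stood at 4460, 4996, 3910 and 4676 CPM, against 4597, 4916, 4189 and 4647. Ncr1, the activating receptor NKp46 and also a gene of the rule, stood at 278, 305, 187 and 246 CPM, against 247, 317, 253 and 238. Gzmm and Ncr1 helped to select both classes, so of these 3 genes Klrb1a is the marker that the rule did not use. Klri1, an NK receptor, stood at 368, 365, 249 and 283 CPM, against 358, 401, 397 and 354, and was lowest relative to mature NK cells at 24 h with a ratio of 0.63 (0.47 to 0.82). Xcl1, a chemokine that attracts cross-presenting dendritic cells, was the marker on which the classes differed most. It stood at 221, 239, 287 and 314 CPM, against 130, 105, 132 and 217, which are ratios of 1.70 (1.19 to 2.38), 2.28 (1.85 to 2.80), 2.17 (1.64 to 2.85) and 1.44 (1.21 to 1.72).

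Of the T cell markers, Cd3e and Cd8b were found at low counts. Cd3e, a T cell receptor subunit, had 2, 2, 0 and 5 UMIs in all members of the 4 libraries, and Cd8b had 1, 1, 0 and 0. Cd8a, whose product NK cells carry in the rat, had 64 of the 99, 150 of the 231, 72 of the 118 and 158 of the 269 UMIs of the T cell list. The list of 12 genes summed to 520, 394, 490 and 479 CPM, against 1122, 893, 953 and 1071 in mature NK cells, with 10, 9, 7 and 8 genes detected and Cd5 and Themis at 0 UMIs in each library. Cd8a made up most of each sum, and its ratios to mature NK cells were 0.32, 0.32, 0.34 and 0.29. The lower sums therefore do not describe the other T cell markers. The median log2 ratios of the measured T cell markers, Cd8a included, were 0.28, 0.42, 1.06 and 0.31. RNA of other cells differed between libraries. Neutrophil markers, 10 genes including S100a8, summed to 21.0 (control), 1938 (12 h), 386 (24 h) and 37.4 CPM (96 h), with 2, 7, 5 and 4 members detected, against 31.4, 2733, 2954 and 1033 CPM in mature NK cells. Of the neutrophil markers measured in both classes, 3 of 6 were at least 1.5-fold lower in the selected cells at 12 h, beside 13.9% of all genes, 5 of 5 at 24 h, beside 21.5%, and 5 of 5 at 96 h, beside 13.8%. In cells thinned to 2000 UMIs, S100a8 was found in 0, 64.9, 34.2 and 2.02% of members and in 1.6, 72.6, 59.8 and 5.4% of B cells, which should lack it, so its share was not above background. Monocyte markers, 11 genes, summed to 305, 140, 125 and 89.1 CPM, against 210, 166, 173 and 125 in mature NK cells. B cell markers summed to between 253 and 388 CPM, against 282 to 337. Platelet markers summed to 47.3, 8.53, 162 and 0 CPM, from 9, 5, 39 and 0 UMIs, against 7.34, 22.1, 7.24 and 41.4 CPM. Pancreatic acinar markers were at 0 in each library, against 4.50 to 9.82 CPM. The part of this RNA in the results below was not tested, except where values without marked doublets are given.

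NK cells without Gzmb and Klrg1 held larger shares of the kept blood mononuclear cells in the 12 h and 96 h libraries than in the control library. They made up 0.315% of kept cells for control (0.223 to 0.432, exact Clopper-Pearson interval), 1.22% for 12 h (1.02 to 1.44), 0.343% for 24 h (0.244 to 0.469) and 0.745% for 96 h (0.607 to 0.904). The ratios to control were 3.86, 1.09 and 2.37, or 4.11, 1.17 and 2.52 without marked doublets. All NK cells together held 2.86, 6.80, 3.29 and 3.69% of kept cells. Within NK cells the selected ones were 11.0% (7.91 to 14.8), 17.9% (15.2 to 20.8), 10.4% (7.52 to 14.0) and 20.2% (16.7 to 23.9). The intervals of the 12 h and 96 h libraries lay above that of the control library, and that of 24 h overlapped it.

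A count of 0 depends on how deeply a cell was sequenced. With each NK cell thinned to 2000 UMIs, the cells without Gzmb and Klrg1 were 20.6% of NK cells (16.5 to 25.3) for control, 29.9% (26.6 to 33.3) for 12 h, 21.5% (17.4 to 26.0) for 24 h and 35.9% (31.7 to 40.3) for 96 h, the same order of libraries except that 24 h and control changed places. Shares with and without thinning stand side by side in the plot of shares. When NK cells with any UMI of Cd3e, Cd4, Cd8a or Cd8b were left out, the order of the point values changed. Members were then 15 of 26 NK cells for control (57.7%, 36.9 to 76.6) and 73 of 142 for 12 h (51.4%, 42.9 to 59.9). They were 15 of 40 for 24 h (37.5%, 22.7 to 54.2) and 43 of 70 for 96 h (61.4%, 49.0 to 72.8). The 12 h share no longer lay above that of the control library, but the intervals of all libraries overlapped, so no order can be read. In thinned cells Cd8a was found in 32 to 46% of members and in 71 to 81% of mature NK cells. As shares of kept cells the members under this rule kept the order, at 0.124, 0.662, 0.132 and 0.317%. With Cd3e alone at 0, a choice made after the data were seen, members were 11.0, 18.1, 10.5 and 20.4% of NK cells.

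**Figure D1:**
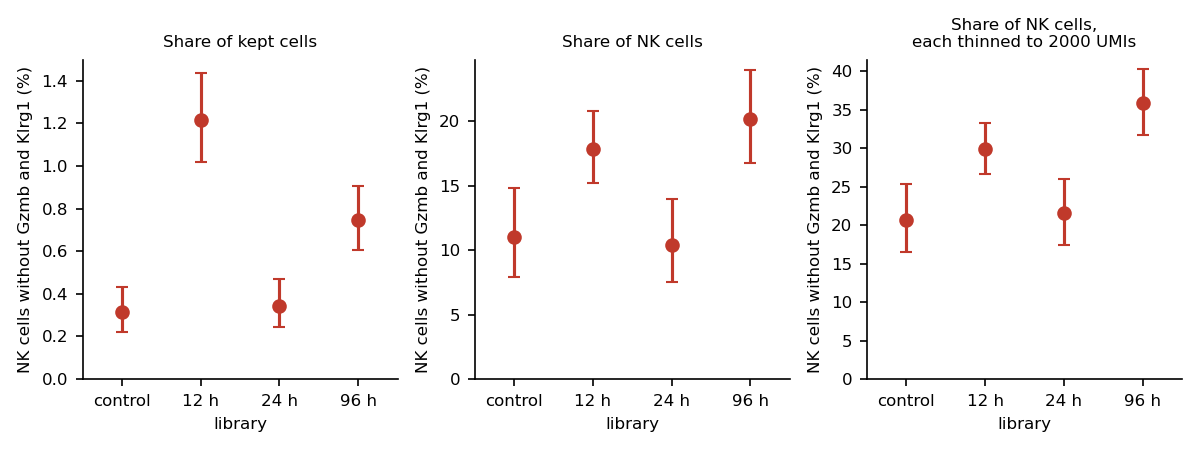
NK cells without Gzmb and Klrg1 as a percentage of kept cells (left), of NK cells (middle) and of NK cells thinned to 2000 UMIs (right), by library; points are shares and bars exact 95% binomial intervals for counting error. The 12 h and 96 h points lie above the control and 24 h points in each panel, at 1.22% and 0.745% of kept cells.

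Against mature NK cells, genes of early NK maturation stood higher and effector and late maturation genes lower in the selected cells. Of 2166 genes with at least 50 CPM in either class and 20 UMIs over both, 11 (0.508%) were at least 2-fold higher in each of the 4 libraries and 24 (1.11%) at least 2-fold lower. Of 5626 genes with 20 UMIs over both, 53 (0.942%) were at least 1.5-fold higher in each library and 121 (2.15%) lower, which is the background for the list counts below. With no CPM minimum 42 genes were lower, and without the 96 h library 19 were higher. Among NK cells with 0 UMIs of Cd3e, Cd4, Cd8a and Cd8b, no gene (0) reached 2-fold higher in each library and 2 reached 2-fold lower. In those cells of the control library the median log2 ratio of the immature NK list below was -0.15, and Cd7 and Xcl1 stood at -0.36 and -0.20. The list of immature NK genes had 8 of 11 measured members at least 1.5-fold higher in each library and 0 lower. Its median log2 ratios were 1.43, 1.19, 1.47 and 0.93, beside 0.00, -0.01, -0.08 and 0.00 over all genes. The NK maturation list had 7 of 15 lower in each library and 0 higher, with medians of -0.38, -0.78, -1.11 and -0.80, and a control median of -0.64 without marked doublets. The highest median ratio in that list was that of S100a4, with 3.39, 1.658, 1.502 and 1.454, under 1.5-fold at 96 h alone. The 3 marked control doublets held 73 of its 149 control UMIs. The lists were chosen with results of these data known, so their counts are no independent evidence of a direction.

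Among the immature NK genes, Cd27 stood at 184 (control), 355 (12 h), 337 (24 h) and 319 CPM (96 h), against 112, 163, 127 and 157 in mature NK cells. The ratios were 1.64 (1.10 to 2.37), 2.17 (1.83 to 2.57), 2.66 (2.04 to 3.43) and 2.03 (1.69 to 2.44). All 4 values lay above all 4 of mature NK cells. Cxcr3, the receptor of interferon-induced chemokines, stood at 78.8, 119, 116 and 116 CPM, against 12.0, 27.8, 24.8 and 28.8, with ratios between 4.02 at 96 h and 6.56 in the control library. Gpr183, an oxysterol receptor that positions lymphocytes, stood at 205, 130, 99.7 and 107 CPM, against 20.7, 28.9, 14.0 and 38.7. Cd7, an immunoglobulin-family receptor of lymphocyte precursors and NK cells, stood at 231, 239, 266 and 390 CPM, against 22.7, 48.0, 30.5 and 106. Its ratio was highest in the control library at 10.2 (6.37 to 16.4), where 1 cell held 59% of the Cd7 UMIs. Emb, Ctla2a and Lef1 of the list were also higher in each library. The lowest median ratio in the list was that of Ly6e, with 0.89, 0.94, 1.15 and 0.85.

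The ranking by the interval bound nearest to no change named 12 higher genes, whose direction was fixed by that choice. Cd7, Cxcr3, Gpr183 and Ctla2a among them belong to the immature NK list. Ctsw, the cathepsin W of cytotoxic lymphocytes, stood at 1093, 1049, 856 and 1069 CPM, against 184, 236, 197 and 445. It was the only member of the cytotoxic effector list that was higher in each library, with ratios of 5.96, 4.44, 4.34 and 2.40. In thinned cells it was found in 65.8 to 79.4% of members, 18.2 to 37.2% of mature NK cells and 1 to 2% of B cells. Ckb, a creatine kinase, stood at 1308, 563, 802 and 1062 CPM, against 244, 258, 274 and 530. Klra22, a Ly49-family receptor, stood at 63.0, 150, 58.2 and 89.1 CPM, against 16.7, 29.7, 20.2 and 20.2, from 12, 88, 14 and 50 UMIs. Its ratios were 3.78 (1.73 to 7.80), 5.05 (3.68 to 6.94), 2.88 (1.45 to 5.43) and 4.40 (2.88 to 6.73). Skap1, an adaptor between antigen receptors and integrins, had ratios of 4.16, 2.92, 4.35 and 2.27, and Fam102a of 2.87, 3.04, 2.95 and 2.84. Ctla2a, an inhibitor of cathepsin-type proteases, had ratios of 3.01, 2.54, 2.89 and 1.78. The interferon-inducible genes Ifi27l2b and Ifitm1 were at 2.88, 2.29, 2.35 and 1.82 and at 2.18, 1.88, 1.94 and 1.57. They are not members of the type I interferon list, whose medians were -0.21, -0.40, -0.46 and -0.81. Of that list 5 of 16, 7 of 17, 5 of 12 and 10 of 18 measured genes were at least 1.5-fold lower, beside 18.6, 13.9, 21.5 and 13.8% of all genes, and 0 were higher in any library, beside 15.4, 10.3, 12.5 and 10.8%. Mcpt8, a protease known from mouse basophils, was at 6.66, 2.71, 6.65 and 2.53, with 54% of its UMIs at 24 h in 1 cell.

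Effector genes were lower by different amounts. Gzma, a granzyme, stood at 399 (control), 420 (12 h), 407 (24 h) and 103 CPM (96 h), against 3671, 3409, 4296 and 2967 in mature NK cells. Its ratios were 0.11 (0.09 to 0.14), 0.12 (0.11 to 0.14), 0.09 (0.08 to 0.12) and 0.03 (0.03 to 0.05). Prf1, the pore-forming perforin, stood at 841, 1131, 715 and 839 CPM, against 3130, 3052, 3153 and 2781. In thinned cells Prf1 was still found in 70.7 to 81.6% of members, against 94.5 to 96.1% of mature NK cells, whereas Gzma was found in 10.1 to 23.7%, against 62.5 to 80.5%. Gzmk, another granzyme, was closer, at 2322, 3009, 2489 and 2558 CPM, against 4538, 5104, 5169 and 4376. Cst7, a cathepsin inhibitor of cytotoxic granules, was the fourth member of the effector list that was lower in each library, of 11 measured. Faslg, the death ligand of killer cells, stood at 78.8, 73.3, 45.7 and 49.9 CPM, against 252, 328, 249 and 215.

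The chemokines Ccl5 and Ccl4 were lower in each library. Ccl5, another chemokine of killer cells, stood at 12510, 17180, 16360 and 14750 CPM, against 28620, 30380, 32500 and 25620, with ratios of 0.44, 0.57, 0.50 and 0.58. Ccl4, which attracts monocytes and T cells, stood at 110, 271, 332 and 242 CPM, against 747, 762, 688 and 897. These were 2 of 7 measured members of the cytokine and chemokine list, and 0 members were at least 1.5-fold higher in each library, Xcl1 missing that limit at 96 h.

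**Figure D2:**
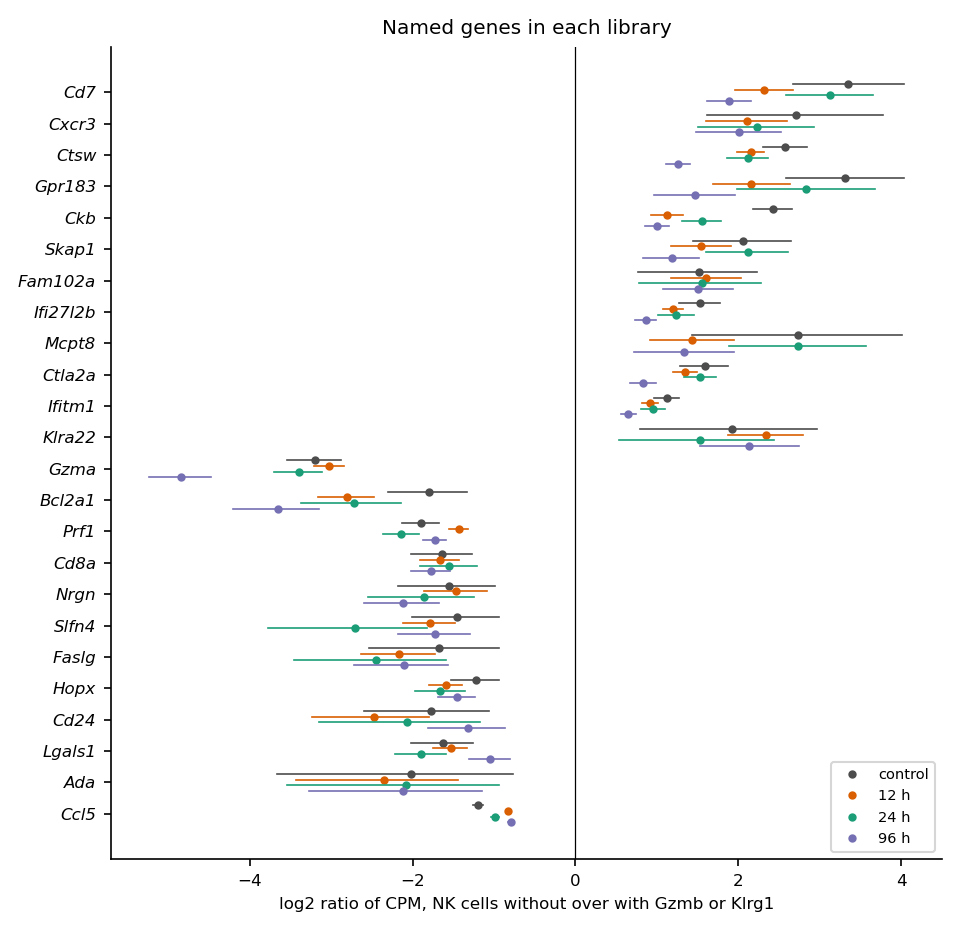
The log2 ratio of CPM (x axis) in NK cells without Gzmb and Klrg1 over mature NK cells for the 24 genes named by the ranking rule, 1 point per library with its exact 95% interval for counting error, the line at 0 marking no difference. The 12 upper genes lie right of the line and the 12 lower genes left of it in all 4 libraries, as the rule required.

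Late maturation regulators were low in number of UMIs. Zeb2, a repressor that drives terminal NK maturation, had 8, 8, 5 and 2 UMIs, against 152, 244, 158 and 167 in mature NK cells, with ratios of 0.41, 0.15, 0.25 and 0.05. S1pr5, the receptor for exit from marrow and lymph nodes, had 7, 8, 6 and 3 UMIs, with ratios of 0.63, 0.15, 0.31 and 0.12. The control ratios were the highest for both genes, and without marked doublets they were 0.24 for Zeb2 and 0.41 for S1pr5. In thinned cells Zeb2 was found in 5.41, 2.29, 7.89 and 0% of members and in 7 to 9% of B cells, so its share in members was not clearly above that in B cells. Whether Zeb2 RNA in B cells is background was not tested. Cx3cr1, a chemokine receptor of late NK cells in mice, had 0, 1, 0 and 0 UMIs, against 15, 30, 17 and 6. Prdm1, a repressor of terminally differentiated lymphocytes, was lower in each library at 0.61, 0.50, 0.57 and 0.57, as was Itgb2, the beta chain of leukocyte integrins, at 0.66, 0.58, 0.41 and 0.62. Tbx21, the T-bet factor of NK and type 1 lymphocytes, differed less, with ratios of 0.89 (0.58 to 1.31), 0.75 (0.59 to 0.93), 0.46 (0.29 to 0.71) and 0.76 (0.57 to 1.0).

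One transcription factor was higher in each library. Lef1, a factor of lymphocyte precursors, stood at 68.3, 68.2, 79.0 and 81.9 CPM, against 18.02, 23.2, 12.9 and 46.4, and was the 1 of 19 measured factors at least 1.5-fold higher in each library, where Zeb2 and Prdm1 were lower. Its relative Tcf7, which fell under the minimum of 20 UMIs over both classes in the control and 24 h libraries, had 6, 12, 5 and 23 UMIs and ratios of 4.72 (1.41 to 14.3), 3.16 (1.38 to 7.02), 3.35 (0.92 to 10.2) and 3.79 (2.05 to 7.02). Satb1, a chromatin organiser of lymphocytes in the naive list, stood at 52.5, 95.5, 95.6 and 102 CPM, against 29.4, 50.7, 33.1 and 49.1. Foxp1, a forkhead factor of the same list, was at 0.90, 0.93, 0.82 and 0.92. Il7r, the receptor of the survival cytokine interleukin 7, had 2, 15, 4 and 18 UMIs, against 0, 6, 7 and 9 in the far larger mature class. In thinned cells Il7r was found in 0, 3.82, 2.63 and 6.06% of members and in at most 1.25% of mature NK cells and 1% of B cells.

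Other genes lower in each library were not killing genes. Cd8a stood at 336, 256, 299 and 281 CPM, against 1044, 810, 875 and 966, with ratios between 0.29 and 0.34. Hopx, a small homeodomain protein of differentiated lymphocytes, stood at 525, 374, 382 and 321 CPM, against 1229, 1128, 1207 and 881. Lgals1, which encodes galectin-1, was at 0.32, 0.35, 0.27 and 0.48, and Bcl2a1, a survival protein of the Bcl-2 family, at 0.29, 0.14, 0.15 and 0.08. Without marked doublets the control ratio of Bcl2a1 was 0.19. Nrgn, a calmodulin-binding protein, was at 0.34, 0.36, 0.28 and 0.23, and Slfn4, a schlafen protein, at 0.37, 0.29, 0.15 and 0.30. The neutrophil marker sums given above were also lower in the selected cells in each library, and their part in the values of Bcl2a1 and Slfn4 was not tested. Cd24, a glycolipid-anchored surface protein, was at 0.29, 0.18, 0.24 and 0.40, and Ada, adenosine deaminase, at 0.25, 0.20, 0.24 and 0.23 from 5 to 10 UMIs in the selected cells.

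Receptors and signalling genes of NK cells lay near mature levels on balance, with median log2 ratios of -0.11, 0.18, 0.25 and 0.13 for killer receptors and -0.22, -0.11, -0.30 and -0.31 for adaptors. The control medians were 0.0095 for killer receptors and -0.26 for adaptors without marked doublets. Of 21 measured killer receptors, Klra22, Ly49i4 and Cd226 were at least 1.5-fold higher in each library and 0 were lower. Ly49i4 stood at 152, 336, 129 and 164 CPM, against 79.4, 144, 64.6 and 75.2. Cd226, the activating receptor DNAM-1, stood at 126, 87.0, 104 and 80.2 CPM, against 34.7, 33.9, 28.4 and 39.2. Klrd1, the CD94 partner of the NKG2 receptors, had ratios of 0.88, 0.84, 0.82 and 0.85, and Klrk1, the activating receptor NKG2D, of 1.47, 1.13, 1.03 and 1.23. Tyrobp, the DAP12 adaptor of activating Ly49 receptors, was at 0.84, 0.77, 0.65 and 0.76, and Fcer1g, the adaptor of Ncr1 and Fc receptors, at 0.92, 0.78, 0.75 and 0.72. Of 15 measured adaptors 0 were lower in each library. Fcgr3a, the Fc receptor CD16, had ratios of 1.20, 0.16, 0.20 and 0.05. The 3 marked control doublets held 11 of its 12 control UMIs, and without them its control ratio was 0.13.

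Homing receptors were split. Cxcr3, Cxcr4 and Gpr183 were higher in each library, and 2 of 14 measured, S1pr5 and Itgb2, were lower. Cxcr4, the receptor that holds cells in bone marrow, stood at 462, 490, 266 and 502 CPM, against 188, 205, 168 and 274. Of 5 measured genes of type 1 innate lymphoid cells and tissue residence, 0 were lower in each library. Itga1, an integrin of tissue-resident cells in that list, had 4, 8, 2 and 8 UMIs and ratios of 1.02, 0.64, 0.41 and 0.77. The other lists had few members past 1.5-fold in each library. Ribosomal protein genes had 0 of 19, oxidative phosphorylation 0 of 11, immediate early genes 0 of 12, NF-kB targets 0 of 7, cytokine receptors 0 of 9 and cell cycle genes 0 of 8 in either direction, and type I interferon genes 2 of 11, Isg15 and Oas1a, both lower. Of 5 measured naive lymphocyte genes 0 were lower, and Lef1 and Satb1 were among those higher. Glucocorticoid response genes had 1 of 10 higher, Cxcr4, and 1 lower, the kinase gene Sgk1. Heat shock genes had 1 of 8 lower, the chaperonin partner Hspe1, and glycolysis genes 1 of 10 lower, the glucose transporter gene Slc2a1. Il18r1, a receptor chain for interleukin 18, had the highest median ratio of the cytokine receptors and stood at 158, 131, 91.4 and 73.0 CPM, against 33.4, 48.4, 39.3 and 63.9, and its ratio was nearest 1 at 96 h, at 1.14 (0.79 to 1.63). Among markers of other cells, the scavenger receptor gene Cd6 of T cells was higher at 3.07, 2.02, 1.93 and 2.08 and Cd8a lower, of 3 measured T cell markers, while 0 of 5 measured monocyte markers were past 1.5-fold in each library.

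The levels differed between cells binned by the number of Gzmb and Klrg1 UMIs in a cell. These bins use the rule's own genes, and Cd27, Klra22, Gzma and Prf1 already differed across its cut, so the values are a description. Over the 4 libraries summed, NK cells with 0, 1, 2 to 3, 4 to 7 and 8 or more such UMIs numbered 312, 214, 332, 573 and 539, with median depths of 4846, 4770, 4714, 4533 and 5013 UMIs. Cd27 stood at 319, 274, 204, 124 and 80.0 CPM in these bins, and Klra22 at 104, 63.7, 31.9, 15.5 and 8.85. Gzma stood at 303, 650, 1431, 3681 and 5708 CPM, and Prf1 at 929, 1269, 2058, 3089 and 4150. The cells with 1 UMI lay between those with 0 and those with 2 to 3 for each of these 4 genes in the sum over libraries. Single libraries were less regular. Cd27 stood at 184, 207 and 153 CPM in the 3 lowest bins of the control library, and Klra22 at 63.0, 0 and 34.0 CPM there and at 58.2, 24.6 and 34.2 CPM at 24 h. Xcl1 was higher in cells with 1 such UMI than in cells with 0 in the control library, at 288.5 against 220.7 CPM. The same held at 24 h, at 326.1 against 286.7 CPM. It was lower in cells with 1 such UMI at 12 h, at 170.1 against 238.8 CPM, and at 96 h, at 251.7 against 313.5 CPM. Klrb1a varied little, at 1995, 2002, 1825, 1661 and 1768 CPM.

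**Figure D3:**
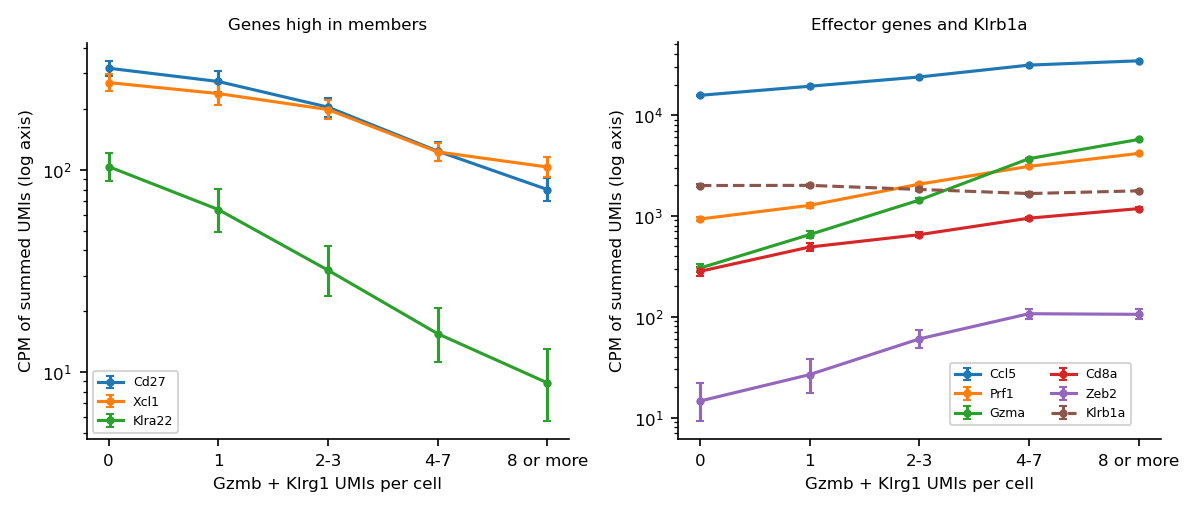
CPM on a log axis (y) of 3 genes that were higher (left) and of 5 effector or maturation genes and Klrb1a (right) in NK cells binned by their Gzmb and Klrg1 UMIs (x), with the 4 libraries summed and bars for exact 95% Poisson intervals. Cd27 and Klra22 step down and Gzma and Prf1 step up from each bin to the next, whereas Klrb1a stays between 1661 and 2002 CPM. The bins use genes of the rule, so the steps are a description.

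Relative to the control library, the 12 h members held higher levels of many killer receptors. Of 2734 genes, 125 (4.57%) were at least 2-fold higher at 12 h and 115 (4.21%) lower. After thinning to 2000 UMIs 52 were higher and 51 lower, and with no CPM minimum 307 were higher. Of 22 measured killer receptors, 11 were at least 1.5-fold higher at 12 h and 0 lower, beside 17.8% of all genes higher and 11.0% lower at that limit. Without marked doublets, 11 of 22 were higher and 1 lower. In mature NK cells 5 of 23 were higher and 0 lower at 12 h, beside 11.4% and 5.17% of all genes in that comparison, and 2 of 23 were higher and 1 lower at 24 h, beside 7.95% and 9.32%. At 24 h the count in members was 4 of 17 higher and 1 lower, beside 8.91% and 17.8% of all genes, and at 96 h 3 of 19 higher and 1 lower, beside 16.8% and 10.7%. The 3 times share 1 control sum, which rests on 38 cells, and their values are therefore not independent.

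Klri2, a lectin-like receptor related to Klri1, stood at 73.5 (control), 193 (12 h), 282 (24 h) and 249 CPM (96 h). Its ratios to control were 2.62 (1.5 to 4.95), 3.84 (2.14 to 7.40) and 3.39 (1.96 to 6.36), and in mature NK cells 0.69, 0.91 and 1.11. The control value stood apart from the other 3 in the selected cells but not in mature cells, where Klri2 was at 262, 181, 238 and 292 CPM. In thinned cells Klri2 was found in 5.41% of control members (0.66 to 18.2), against 20.6% for 12 h (14.0 to 28.6), 28.9% for 24 h (15.4 to 45.9) and 26.3% for 96 h (17.9 to 36.1). Lag3, an inhibitory receptor of activated lymphocytes, stood at 36.8, 130, 158 and 121 CPM, with ratios to control of 3.52 (1.63 to 9.06), 4.29 (1.89 to 11.4) and 3.29 (1.51 to 8.50). The share of thinned members with a Lag3 UMI was 10.8, 11.4, 13.2 and 10.1%, so the share of cells did not follow the CPM. Ly49s6 stood at 163, 368, 345 and 180 CPM, with ratios of 2.26 (1.55 to 3.41), 2.12 (1.39 to 3.31) and 1.10 (0.73 to 1.71), high at 12 h and 24 h but not at 96 h. Klra1 had 1, 38, 17 and 0 UMIs, with ratios of 12.3 (2.08 to 500) for 12 h and 13.4 (2.11 to 562) for 24 h. Ly49i4 and Klra22 were higher than control at 12 h, with ratios of 2.21 (1.49 to 3.38) and 2.38 (1.30 to 4.78), and both intervals reached 1 at the other times.

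Cd27 was higher in each pancreatitis library, with ratios to control of 1.93 (1.34 to 2.85), 1.83 (1.22 to 2.80) and 1.73 (1.20 to 2.57), and of 1.46, 1.13 and 1.40 in mature NK cells. Gimap4, a GTPase of lymphocytes, stood at 47.3 (control), 198 (12 h), 254 (24 h) and 118 CPM (96 h), with ratios of 4.18, 5.36 and 2.49, and of 2.74, 2.95 and 2.27 in mature NK cells. Rilpl2, a partner of Rab GTPases, stood at 57.8, 140, 249 and 214 CPM, and Magohb, of the exon junction complex, at 137, 326, 461 and 365. Neither reached 1.5-fold at any time in mature NK cells. Mrps5, a mitochondrial ribosome protein, had 1, 35, 14 and 39 UMIs, so its ratios of 11.4 (1.91 to 462), 11.1 (1.69 to 468) and 13.2 (2.24 to 536) rest on 1 control UMI. Rapgef6, an activator of Rap GTPases, had ratios of 5.52, 3.36 and 3.48 from 4 control UMIs. Pim2, a survival kinase, was at 7.91 (1.92 to 69.8) at 24 h from 2 control UMIs. Bag3, a co-chaperone, Fcrl6, of the Fc receptor-like family, and Dynlt1, a dynein light chain, had 0 UMIs in the control members. With 3 counts put in place of the control 0, Bag3 and Fcrl6 each had a ratio of 3.35 at 12 h. Dynlt1 then had ratios of 4.75 at 24 h and 3.73 at 96 h. These ratios depend on that floor and are not lower bounds.

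**Figure D4:**
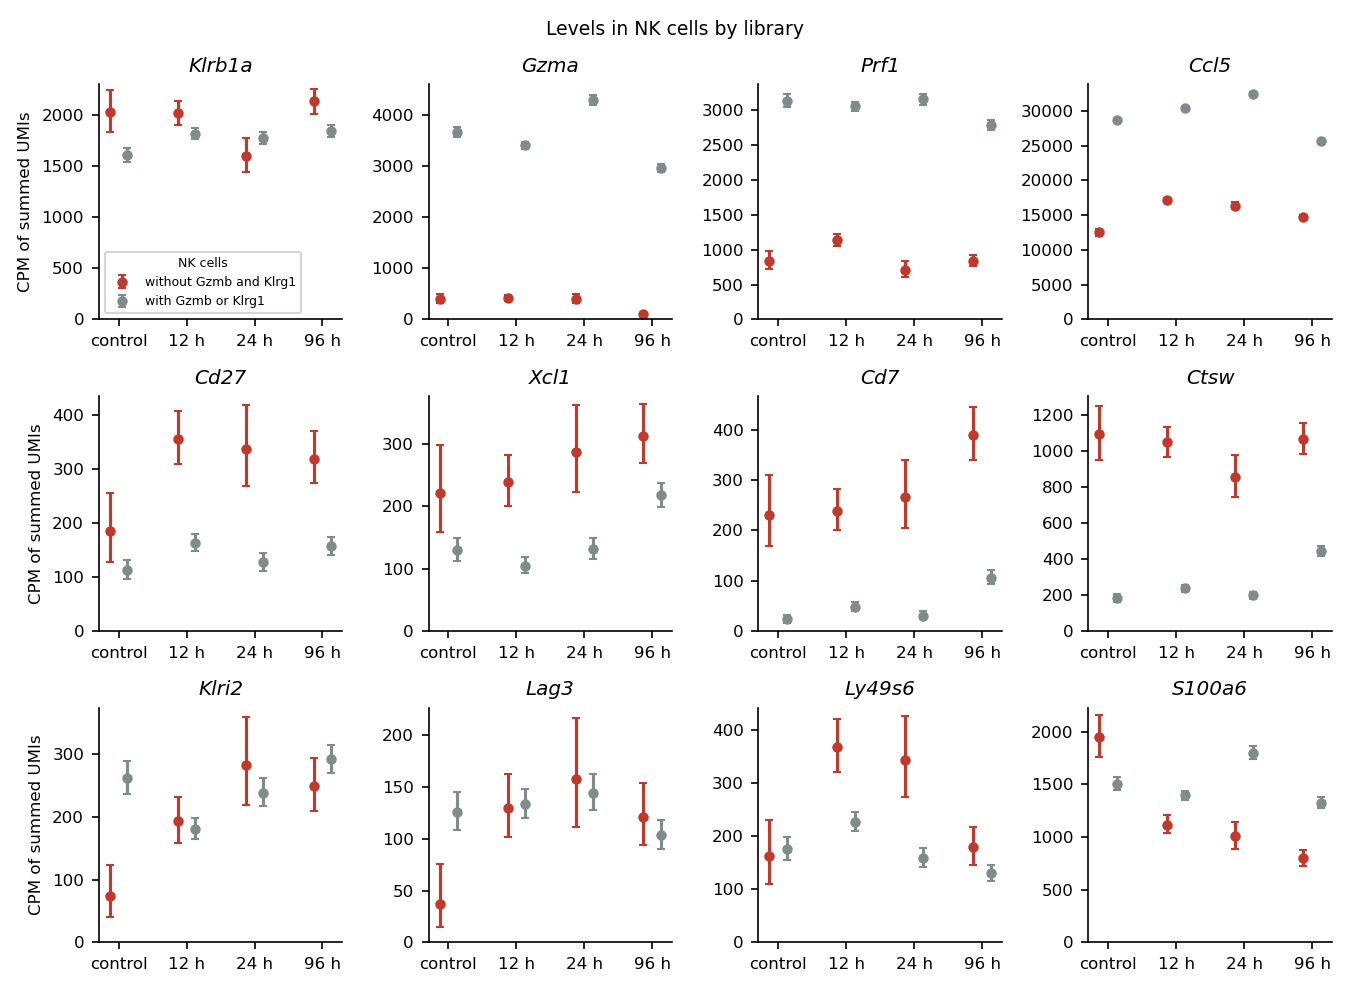
CPM of 12 genes by library (x axis) in NK cells without Gzmb and Klrg1 (red, left of each pair) and in mature NK cells (grey), with exact 95% Poisson intervals for counting error. Gzma, Prf1 and Ccl5 lie lower and Cd27, Xcl1, Cd7 and Ctsw higher in the red points of each library, and Klri2 and Lag3 are low in the control red point, at 73.5 and 36.8 CPM.

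Several of the genes lower than control rested on few control cells. S100a6, a calcium-binding protein, stood at 1949 (control), 1119 (12 h), 1010 (24 h) and 802 CPM (96 h), with ratios of 0.57 (0.50 to 0.65), 0.52 (0.44 to 0.61) and 0.41 (0.36 to 0.47), which were 0.59, 0.53 and 0.42 without marked doublets. In mature NK cells its ratios were 0.93, 1.20 and 0.88. Ckb was lower at 12 h, with a ratio of 0.43 (0.36 to 0.51), against 1.06 in mature NK cells, and stood at 0.61 and 0.81 at the later times. Gnb1, a G protein subunit, was at 0.35, 0.37 and 0.40, or 0.46, 0.48 and 0.52 without marked doublets. Rras, a small GTPase, was at 0.34, 0.29 and 0.34, or 0.64, 0.54 and 0.64 without them. The 12 h ratios of Stmn1 and Mcm6, genes of dividing cells, were 0.24 and 0.29, and 1 control cell held 81% and 44% of their control UMIs. At 12 h Metrnl, a secreted cytokine, and Parp9, a partner of ADP-ribosylation, had ratios of 0.27 and 0.24.

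At 24 h, 74 of 2422 genes (3.06%) were at least 2-fold higher than control and 143 (5.90%) lower. After thinning 45 were higher. The log2 ratio to control over all genes had a median of -0.13 at 24 h by the median-of-ratios scaling. Lower genes included Scimp, a signalling adaptor of immune synapses, at 0.24 (0.10 to 0.51), Morf4l1, a chromatin protein, at 0.24 (0.09 to 0.58), and Topors, a ubiquitin and SUMO ligase, at 0.19 (0.05 to 0.57), and these 3 were at 0.89, 0.87 and 0.89 in mature NK cells. Kcnk1, a potassium channel, and Tra2a, a splicing factor, had ratios of 0.20 and 0.28. These values rest on 39 cells against 38, and on 4 to 9 UMIs per gene at 24 h.

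At 96 h, 122 of 2729 genes (4.47%) were at least 2-fold higher than control and 110 (4.03%) lower. After thinning 43 were higher and 43 lower, and with no CPM minimum 272 were higher. Gzma stood at 103 CPM at 96 h against 399 in the control library, a ratio of 0.26 (0.18 to 0.37), while it was 1.05 at 12 h and 1.02 at 24 h. One control cell held 33% of the control UMIs of Gzma. In mature NK cells the ratio of Gzma at 96 h was 0.81. Cst7 was at 0.38 (0.23 to 0.64) at 96 h. Prf1, at 1.0 (0.83 to 1.20), and Gzmk, at 1.10 (0.99 to 1.23), did not share this difference. Wasl and Svil, which act on the actin skeleton, were at 0.21 (0.09 to 0.50) and 0.30 (0.14 to 0.64), and Atp5md, a subunit of ATP synthase, at 0.36 (0.21 to 0.64). Heat shock genes had 4 of 7 measured members at least 1.5-fold higher at 96 h and 0 lower, also without marked doublets, beside 16.8% of all genes, and 2 of 8 higher and 0 lower in mature NK cells, beside 8.85% and 5.87% of all genes there. Dnaja1, a co-chaperone of Hsp70, stood at 105, 157, 91.4 and 264 CPM, and its 96 h ratio was 2.51 (1.57 to 4.23). Hspd1, a mitochondrial chaperonin, stood at 99.8, 148, 166 and 196 CPM, and its 96 h ratio was 1.96 (1.20 to 3.38). Jun, an immediate early transcription factor, had 5, 22, 27 and 65 UMIs, with ratios of 1.43 (0.53 to 4.83), 4.27 (1.62 to 14.2) and 4.41 (1.79 to 14.0), against 0.81, 1.45 and 2.06 in mature NK cells.

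Immediate early genes at 12 h depended in part on a few control cells. Of 11 measured, 6 were at least 1.5-fold lower than control and 0 higher, beside 11.0% and 17.8% of all genes. Without marked doublets 4 were lower and 2 higher, beside 9.87% and 19.2%. Dusp1, a phosphatase induced by stress and glucocorticoids, stood at 504, 116, 270 and 125 CPM, with ratios of 0.23, 0.54 and 0.25. The 3 marked control cells held 64 of its 96 control UMIs, and without marked doublets the ratios were 0.56, 1.42 and 0.66. Nr4a1, an early gene of receptor signalling, had ratios of 0.26, 0.22 and 0.24, or 0.46, 0.49 and 0.54 without them. The other NK lists stood beside the same 17.8% of all genes higher and 11.0% lower at 12 h. NK maturation genes had 3 of 13 lower and 0 higher, immature NK genes 2 of 11 higher and 2 lower, cytotoxic effectors 0 of 11 in either direction, cytokines 2 of 7 higher and 0 lower, and cytokine receptors 3 of 8 higher and 0 lower.

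Among the selected cells, those with a Klra22 UMI differed from the rest in several receptors at once. This gene was chosen for the split after its values were seen. Cells with a Klra22 UMI numbered 64 (4 (control), 30 (12 h), 7 (24 h) and 23 (96 h)) and those without 248, with median depths of 5792 and 4734 UMIs. With the 4 libraries summed, Ly49i4 stood at 672 CPM in cells with Klra22 and 84.2 in cells without, a ratio of 7.97 (6.31 to 10.1). Klra1, Klra5, Ly49s7 and Ly49s6 were at 12.1, 5.76, 5.62 and 4.38, and reads shared between these copies cannot be told apart from expression of several receptors in a cell. Genes of other families also differed. Lag3 stood at 313 CPM with Klra22 and 61.1 without, a ratio of 5.12 (3.79 to 6.95), Cd7 at 530 and 225, and Cd27 at 544 and 250. The libraries were not alike, since the Lag3 ratio was 1.24, 10.7, 2.25 and 4.01, the Ly49i4 ratio at 24 h was 1.20 (0.46 to 2.78), and Cd7 was lower with Klra22 in the control library at 0.35 (0.04 to 1.36). By library, the Cd27 ratio was 1.54 (0.52 to 3.77) for control, 2.50 (1.88 to 3.31) for 12 h, 1.82 (1.11 to 2.93) for 24 h and 1.93 (1.41 to 2.63) for 96 h.

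Cells with Klra22 held less of other NK genes. Hopx stood at 117 CPM with Klra22 and 452 without, a ratio of 0.26 (0.18 to 0.35), and was below 1 in each library at 0.65, 0.13, 0.20 and 0.37, with an interval that reached 1 in the control library alone. Klri1 stood at 139 and 373 CPM, a ratio of 0.37 (0.27 to 0.50), Ncr1 at 158 and 295, Cd8a at 125 and 329, and Prf1 at 563 and 1040. Xcl1 stood at 185 CPM with Klra22 and 296 without, a ratio of 0.62 (0.47 to 0.81), although both genes were higher in the selected cells than in mature ones. Tyrobp, Fcer1g and Ccl5 were near level, at 1.004, 0.956 and 0.937. S100a8 was higher with Klra22 at 12 h, at 2243 CPM against 619, and 1 member held 44.6% of the S100a8 UMIs in that library.

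**Figure D5:**
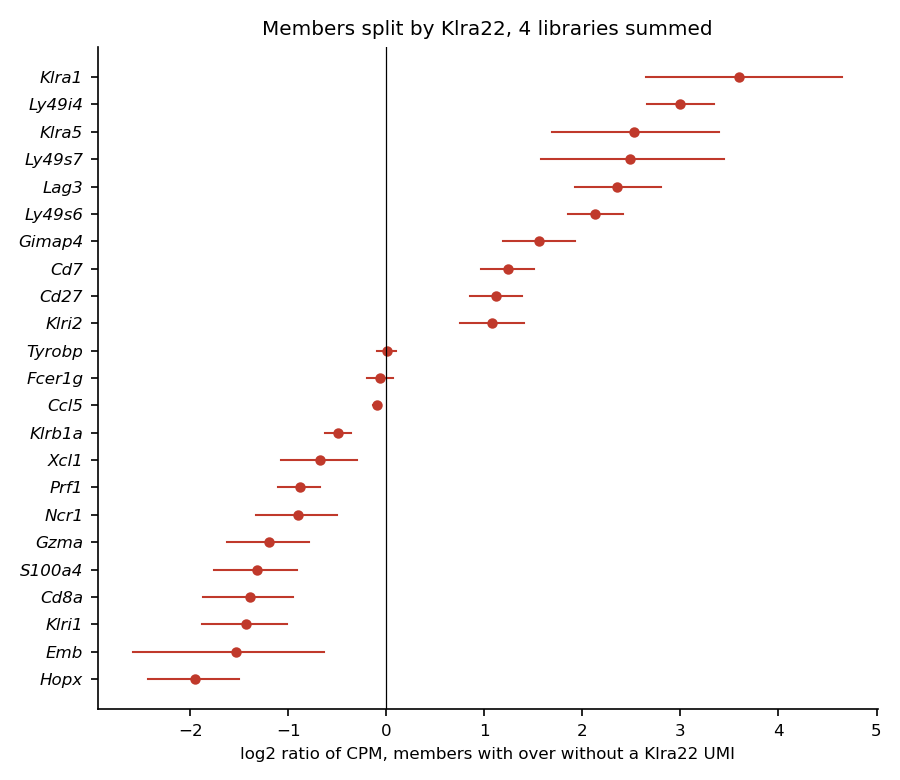
The log2 ratio of CPM (x axis) in members with over members without a Klra22 UMI for 23 genes chosen after the values were seen, with the 4 libraries summed and bars for exact 95% intervals of counting error. Ly49 genes, Lag3, Cd7 and Cd27 lie right of 0, and Hopx, Emb, Klri1 and Cd8a lie left of it.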

How the data were processed

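Per the labels' protocols, blood mononuclear cells were captured with a 10x Genomics 5′ kit and sequenced on a NovaSeq 6000. The authors deposited 1 matrix of UMI counts per library. Cell Ranger, Seurat and mm10 are listed in the submitters' processing notes, with no versions. The deposited cells held at least 301 genes and under 15% mitochondrial UMIs, as the values show.

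The deposited counts were summed over cells of a class and library and scaled to CPM. Ratios carry exact conditional binomial intervals, levels exact Poisson intervals and shares Clopper-Pearson intervals, all at 95%. With 1 library per group there was no test. Ratios against 0 counts used a floor of 3 counts. Gene counts needed 50 CPM in either side and 20 UMIs over both, and list counts 20 UMIs.

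Members, lists and rules were chosen with earlier results of these data known. Named genes against mature NK cells were the 12 highest and 12 lowest by the bound nearest 1 in the library where it was nearest, with the same direction in each library, and against control the 6 highest and 6 lowest per time. A gene had to reach 25% of its highest level among T, B, monocyte and NK classes on its higher side, and genes of the rule, mitochondrial, ribosomal, haemoglobin and antigen receptor genes were left out. Markers and genes quoted with their lists were added.

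Scrublet in scanpy 1.11.5, run per library, marked 5.49, 5.11, 4.07 and 4.66% of kept cells in the control, 12 h, 24 h and 96 h libraries, and marked cells were kept except where stated. Python 3.11.15, numpy 2.4.6, scipy 1.17.1 and pandas 2.3.3 were used. The procedure was tested on sums of counts simulated with counting error only. That simulation held no spread between cells, so it cannot show how the intervals hold where single cells carry many UMIs. Alternatives were other cell rules, doublets removed, thinning to 2000 UMIs, median-of-ratios scaling, a mean over cells and no CPM minimum. Clusters and an annotation by the authors were not used here, and no sequence or coordinate is given. Some genes are not reported here.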

Additional observations from a re-analysis of the deposited data

Results flagged for a closer look

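S100a6 and the small GTPase gene Rras were higher in NK cells without Gzmb and Klrg1 than in mature NK cells in the control library and lower in each of the 3 pancreatitis libraries. The difference between libraries was not tested. S100a6 had a ratio of 1.295 (1.16 to 1.45) in the control library and of 0.80, 0.56 and 0.60 at 12 h, 24 h and 96 h, and the control ratio without marked doublets was 1.27. Rras had a ratio of 1.94 (1.11 to 3.24) in the control library, from 19 UMIs, and of 0.53, 0.42 and 0.50. The 3 marked control doublets held 10 of these 19 UMIs, and without them the control ratio of Rras was 1.34.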

How the results depend on the processing

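No paired analysis was possible because each group is 1 library. The share of NK cells without Gzmb and Klrg1 was 19.4, 30.0, 17.6 and 33.5% in the control, 12 h, 24 h and 96 h libraries when 1 UMI of these genes was allowed, and 20.6, 29.9, 21.5 and 35.9% after thinning to 2000 UMIs. Against mature NK cells, the number of genes at least 2-fold higher in each library was between 12 and 19 when 1 library was left out, with 19 without the 96 h library, and the number lower was between 28 and 30. With no CPM minimum 42 genes were lower.

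The strictest rule also asked for 0 UMIs of Cd3e, Cd4, Cd8a and Cd8b. It left 26 of the 345 control NK cells, and 15 of these 26 were members. Against mature NK cells, 0 genes were then higher and 2 lower. The share of kept cells was then 0.124, 0.662, 0.132 and 0.317%, and the share of NK cells 57.7, 51.4, 37.5 and 61.4%, a rule applied to shares after the data were seen. Under it the log2 ratio of Cd7 in the control library was -0.36, of Xcl1 in the control library -0.20, of Mcpt8 at 24 h -0.51, of Gzmm at 24 h 0.0095, of Ctla2a at 96 h -0.21, of Klra22 at 96 h -0.49, of Cd24 at 96 h 0.070, of Ccl5 at 96 h 0.12 and of Klri1 at 96 h 0.12, and the control median of the immature NK list was -0.15, each the opposite direction. The cause was not tested beyond the loss of cells. With Cd3e alone added to the rule, a choice made after the data were seen, each of 152 ratios of named genes moved by less than its interval.

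Against control, thinning left 52 genes higher and 51 lower at 12 h, 45 higher at 24 h, and 43 higher and 43 lower at 96 h. The strictest rule gave 230 higher at 12 h, 45 higher and 54 lower at 24 h and 54 lower at 96 h, and no CPM minimum 307 higher at 12 h and 272 at 96 h. Median-of-ratios scaling took out a median log2 ratio of -0.13 at 24 h against control, so ratios there were higher under it. Doublet removal moved 2 of 152 gene ratios and 8 of 155 list medians, thinning 53 of 152, and a mean over cells 8 of 152. Under the strictest rule 88 gene ratios moved, 9 reversed and 50 stayed the same, and 38 list medians moved. The control and 24 h libraries held the fewest members, 38 and 39.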

Other observations

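Splits of the 312 cells by other genes, chosen after values were seen, gave values that belong in no comparison above. The 4 libraries were summed in these splits. The 181 cells with an Xcl1 UMI held 2.65 times the S100a4, 3.08 times the Stmn1 and 0.50 times the Ly49i4 of the 131 cells without. The 34 cells with an Il7r UMI held 0.17 times the Gzma and 0.58 times the Prf1 of the 278 without. The 87 cells with a Gzma UMI held 1.61 times the Prf1 and 1.61 times the Cd8a of the 225 without. The 148 cells with a Cd7 UMI held 0.46 times the Gzma of the 164 without. Cells with and without a UMI differed in depth, with medians of 5628 and 4750 UMIs for Il7r and 4499 and 5079 for Gzma. The libraries also differed. The 96 h members held 18 of the 39 Il7r UMIs, and their Gzma stood at 103 CPM. In the control, 12 h and 24 h libraries Gzma stood at 399, 420 and 407 CPM. The part of such differences between libraries in the splits was not tested.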
